A study of Danio rerio with 9 samples.

Results

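Zebrafish embryos that developed a deformed yolk after exposure to a coal dust extract, the group labelled P2, were compared with a pooled control library at 24 h post fertilisation (hpf). The comparison was defined by the submitters' labels and takes in 3 of the 9 libraries of the series, 2 of P2 and 1 of the control. Whole embryos of the TU strain had been kept from 4 hpf in a methanolic extract of coal dust, dissolved in DMSO, at 100 mg/L, and were then sorted by shape. P2 embryos had a deformed yolk (n = 2 libraries). P1 embryos had a deformed tail (n = 3), and P3 embryos were small with extruded yolks (n = 3). The control was 1 library of pooled embryos of normal phenotype, with no statement in the labels on whether it received the DMSO solvent. RNA came from 50 embryos per phenotype group, and nothing in the labels says that libraries of a group came from separate clutches. The p-values below therefore measure the spread between libraries, which may be technical. Because embryos were sorted after exposure, P2 differs from the control in exposure and in shape at once, and these cannot be told apart. No expression marker defines a deformed yolk, so the P2 label itself could not be checked against the RNA.

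At this age the zebrafish embryo has a beating heart and a segmented trunk, and it lives entirely on its yolk. The yolk syncytial layer, a multinucleate layer on the yolk surface, packages yolk lipid into lipoproteins and already transcribes many plasma protein genes that are typical of the liver later on. Aromatic compounds of the kind found in coal bind the aryl hydrocarbon receptor (AHR), a transcription factor that switches on cytochrome P450 genes of the CYP1 family. The zebrafish circadian clock can be set directly by light in most tissues, through light-induced genes such as per2 and cry1a. The prolyl hydroxylase egln3 and the stress regulator ddit4 are established targets of the hypoxia-inducible factor in vertebrates.

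All 4 genes of the CYP1 family were higher in P2 than in the control. The gene cyp1a (ENSDARG00000026039, chromosome 18, 4974676 to 4985566 on Zv9), whose enzyme oxidises polycyclic aromatic compounds, had 3929 and 4078 CPM in P2, against 119 CPM in the control (log2 fold change 5.08 ± 0.11 SE, adjusted p = 1.28e-15). CPM are counts scaled to a common library size with trimmed-mean factors, and the test throughout is edgeR's quasi-likelihood F test with Benjamini-Hochberg adjustment over 19835 genes and a threshold of 0.05. On the authors' length-corrected scale (FPKM, which corrects for gene length and depth), cyp1a stood at 1520 and 1568 FPKM in P2 and 45.3 FPKM in the control. Ranked by FPKM among the tested genes, it was number 69 and number 66 in the P2 libraries and number 1611 in the control. Of 23 tested genes of the AHR response list, 15 rose (65.2%), 3 fell (13.0%) and 5 did not pass the test. Over all tested genes, 14.2% rose and 15.6% fell. For cyp1a, P2 did not pass the test against P1, with 4096 ± 83.5 CPM, or P3, with 4117 ± 260.2 CPM (SD, n = 3 each, as for every P1 and P3 mean below). The other 3 members also rose against the control, but were lower in P2 than in either other phenotype. For cyp1c2 the P2 libraries held 20.9 and 23.0 CPM, against 46.2, 37.7 and 36.8 CPM in P1, 25.9, 37.6 and 40.1 CPM in P3 and 1.34 CPM in the control. P2 did not overlap with either phenotype (P2 against P1, log2 fold change -0.87 ± 0.14 SE, adjusted p = 3.54e-04; P2 against P3, log2 fold change -0.66 ± 0.14 SE, adjusted p = 0.00334). Against the control, the log2 fold changes were 4.89 for cyp1b1, 4.93 for cyp1c1 and 4.03 for cyp1c2. For cyp1b1 the difference to P1 was a log2 fold change of -0.44 and to P3 of -0.30, and for cyp1c1 it was -0.70 and -0.37, all past the threshold. In cyp1c1, however, P2 and P3 overlapped. P3 replicate 0, at 118.4 CPM, lay between the P2 libraries, at 122.2 and 117.5 CPM. Against P3 the calls on cyp1b1 and cyp1c1 were lost without either P2 library, and that on cyp1c2 without P2 replicate 0.

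Of the genes tested, 5916 (29.8%) differed between P2 and the control. 2822 genes (14.2%) were higher in P2 and 3094 (15.6%) were lower. Large changes leaned downward, with 208 genes at least 4-fold higher and 379 at least 4-fold lower among those that passed. The median log2 fold change over all tested genes was 0.004. Against P1, 4072 genes (20.5%) differed, 1966 higher in P2 (9.91%) and 2106 lower (10.6%). Against P3, 4270 genes (21.5%) differed, 2092 higher in P2 (10.5%) and 2178 lower (11.0%). P2 stood above both other phenotypes in 1092 genes (5.51%) and below both in 1176 genes (5.93%). These shares are the background for every list that follows. Leaving out P2 replicate 0 or P2 replicate 1 lowered the number of calls, to 1706 and 1773 higher against the control. Where doing so moved a list's count of 5 or more by over 1.5 times, both counts follow in brackets, without replicate 0 and without replicate 1 in that order. The lists were chosen with earlier results of these data known, so they are described by counts and medians and not tested as sets.

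Total counts were 16267045 and 18358853 in the P2 libraries, 14719252 to 20810487 in the 6 libraries of P1 and P3, and 12008832 in the control. The P2 libraries were close to each other. None of 10291 genes with at least 10 CPM differed 2-fold between them, and the median difference was 1.05-fold. The widest gap was in the small nuclear RNA 7SK, at 7.25 and 13.0 CPM, a 1.8-fold difference that makes its contrasts with the other groups unsafe. Their counts still differed by more than sampling noise (chi-square per degree of freedom 1.634), so both were kept as separate libraries. With 1 control library, the spread behind the P2 contrast came from replicates of the exposed groups.

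The 12 largest rises held the 4 CYP1 genes and the carriers slc16a9a and slc16a9b, and the 12 largest falls held lens and fin genes. foxq1a, a forkhead factor gene known as an AHR target in zebrafish, had 19.1 and 21.9 CPM in P2, 28.0 ± 0.984 CPM in P1, 25.98 ± 2.53 CPM in P3 and 2.09 CPM in the control (P2 against control, log2 fold change 3.29 ± 0.22 SE, adjusted p = 8.72e-09). It was lower in P2 than in both other phenotypes, a call lost without P2 replicate 0. The cartilage matrix gene crtac1a had 10.5 and 11.6 CPM in P2, 10.6, 7.79 and 11.6 CPM in P1, 2.37, 12.6 and 13.0 CPM in P3 and 0.751 CPM in the control (log2 fold change 3.87 ± 0.92 SE, adjusted p = 0.00417). 1 library of P3 stood apart from the others in it. pkhd1l1, a large membrane protein gene, had 18.6 and 20.1 CPM in P2, 10.0 ± 2.61 CPM in P1, 14.2 ± 3.94 CPM in P3 and 2.505 CPM in the control (P2 against control, log2 fold change 2.95 ± 0.38 SE, adjusted p = 1.65e-05). Among the falls were the actinodin genes and3 and and2, which build the fibres of the fin fold. and3 (ENSDARG00000056873, chromosome 10, 23048766 to 23054968) had 0.244 and 0.272 CPM in P2, 2.196 ± 0.699 CPM in P1, 1.07 ± 0.787 CPM in P3 and 17.2 CPM in the control (P2 against control, log2 fold change -6.01 ± 0.49 SE, adjusted p = 7.54e-08), the P2 values resting on 4 and 5 reads. and2 had 1.58 and 2.06 CPM in P2, 4.41 ± 0.39 CPM in P1, 1.62 ± 0.607 CPM in P3 and 57.7 CPM in the control (P2 against control, log2 fold change -4.97 ± 0.20 SE, adjusted p = 9.17e-12). The lens water channel gene mipb had 0.609 and 0.489 CPM in P2, 2.705 ± 0.29 CPM in P1, 1.34 ± 0.48 CPM in P3 and 14.7 CPM in the control (P2 against control, log2 fold change -4.73 ± 0.30 SE, adjusted p = 3.48e-09). The gamma-crystallins crygm2d13, crygmxl2 and crygm2d8 fell by log2 fold changes of -4.98, -4.72 and -3.87. The matrilin gene matn3a, of cartilage, fell by a log2 fold change of -4.50, the calpain gene capn3 by -4.16, the proteoglycan gene fmodb by -3.93, adamtsl7 by -3.78 and fam20a by -3.66. In all 12 falls, krt15 among them, no P2 library held more than the 2.06 CPM of and2, and the P1 and P3 means were also below the control. The genes were chosen as the largest falls against this 1 control library, so low P2 and high control values follow in part from that choice.

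**Figure D1:**
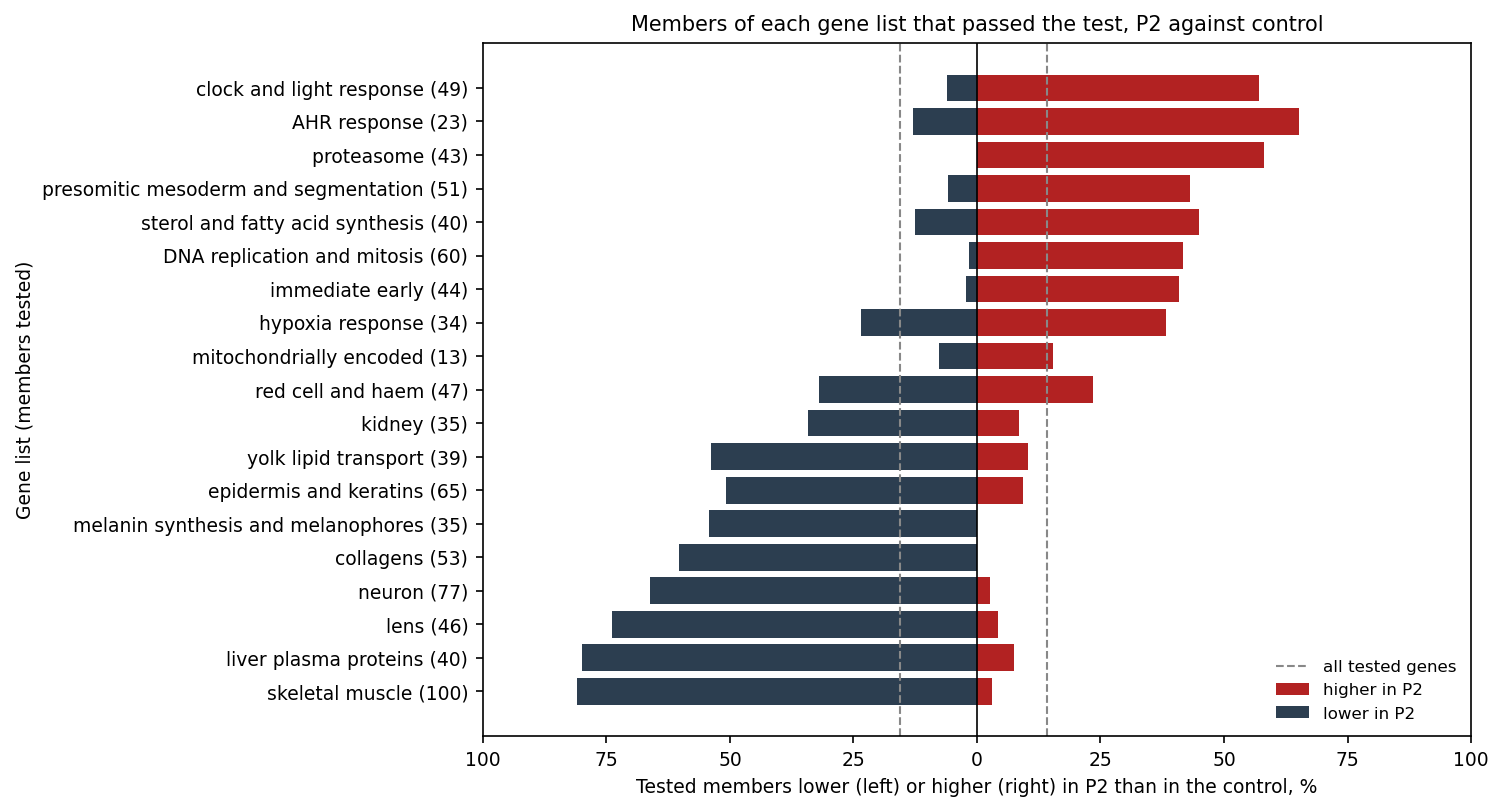
Share of the tested members of selected gene lists, in percent, that were higher (right) or lower (left) in P2 than in the control by edgeR's test, with the number of tested members in brackets. Dashed lines mark the shares over all tested genes, 14.2% higher and 15.6% lower; skeletal muscle, liver plasma proteins and lens extend farthest to the left, and the AHR response, proteasome and clock lists farthest to the right.

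Genes for secreted plasma proteins were lower in P2, both than in the control and than in embryos with the other phenotypes. Of 48 such genes matched, 40 could be tested. Against the control, 3 rose, 32 fell and 5 did not pass the test, at a median log2 fold change of -1.05. The terminal complement gene c9 (ENSDARG00000016319, chromosome 5, 33982802 to 33992904), whose product forms the membrane attack pore, had 48.1 and 47.4 CPM in P2, against 199 CPM in the control (log2 fold change -2.06 ± 0.08 SE, adjusted p = 5.25e-12). Its partner c8a had 7.92 and 7.44 CPM in P2, against 42.0 CPM in the control (log2 fold change -2.45 ± 0.14 SE, adjusted p = 7.45e-10). Plasminogen, plg, which is cleaved to the clot-dissolving enzyme plasmin, had 55.1 and 52.9 CPM in P2, against 156 CPM in the control (log2 fold change -1.53 ± 0.10 SE, adjusted p = 4.22e-09). In all 3 genes both P2 libraries lay well below the control. Such genes were named by a small p against this 1 control library or by low values in P2, so this follows in part from the choice. The list summed to 2512 and 2625 CPM in P2, 3194, 3040.5 and 3297 CPM in P1, 4043, 3880.3 and 4094 CPM in P3, and 3839.8 CPM in the control. In whole-embryo RNA, fewer cells of a type and less RNA per cell cannot be told apart.

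The plasma protein genes also set P2 apart from the embryos of the other phenotypes. 30 of the 40 were below both P1 and P3 in P2 and none was above both, beside 5.93% and 5.51% of all genes. For c9, P1 had 122 ± 4.33 CPM and P3 141 ± 4.21 CPM, and no P2 library overlapped with them (P2 against P1, log2 fold change -1.36 ± 0.06 SE, adjusted p = 1.26e-10; P2 against P3, log2 fold change -1.56 ± 0.06 SE, adjusted p = 3.12e-11). Protein C, proc, an anticoagulant protease, had 2.68 and 2.12 CPM in P2, 6.12 ± 0.533 CPM in P1, 7.02 ± 0.999 CPM in P3 and 9.02 CPM in the control. Vitronectin has a pair of genes in zebrafish, and both fell against the control, vtna by a log2 fold change of -2.41 and vtnb of -1.91. The 3 fibrinogen chain genes fell less, with log2 fold changes of -0.31 for fga, -0.74 for fgb and -1.05 for fgg. The call on fga was lost with DESeq2, with the replicate block and without either P2 library. Complement factor B, cfb, fell by a log2 fold change of -1.85. hao1, which encodes the peroxisomal enzyme hydroxyacid oxidase of the liver, followed the same order, at 25.2 and 25.4 CPM in P2, 62.2 ± 3.32 CPM in P1, 69.7 ± 4.70 CPM in P3 and 109 CPM in the control. c9, proc and hao1 were named among genes with both P2 libraries below every P1 and P3 library, so their separation comes from the choice. Among the members that rose were agt and angptl4, angptl4 being named after its values were seen. Angiotensinogen, agt, the precursor of angiotensin, had 4.57 and 6.35 CPM in P2, 3.93 ± 0.374 CPM in P1, 16.7 ± 2.37 CPM in P3 and 0.334 CPM in the control (P2 against control, log2 fold change 4.01 ± 0.50 SE, adjusted p = 1.23e-05). The control value rests on 4 reads. P2 was below every P3 library in agt (log2 fold change -1.60 ± 0.15 SE, adjusted p = 8.60e-07) and did not pass against P1. The lipoprotein lipase inhibitor gene angptl4 rose by a log2 fold change of 0.88.

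**Figure D2:**
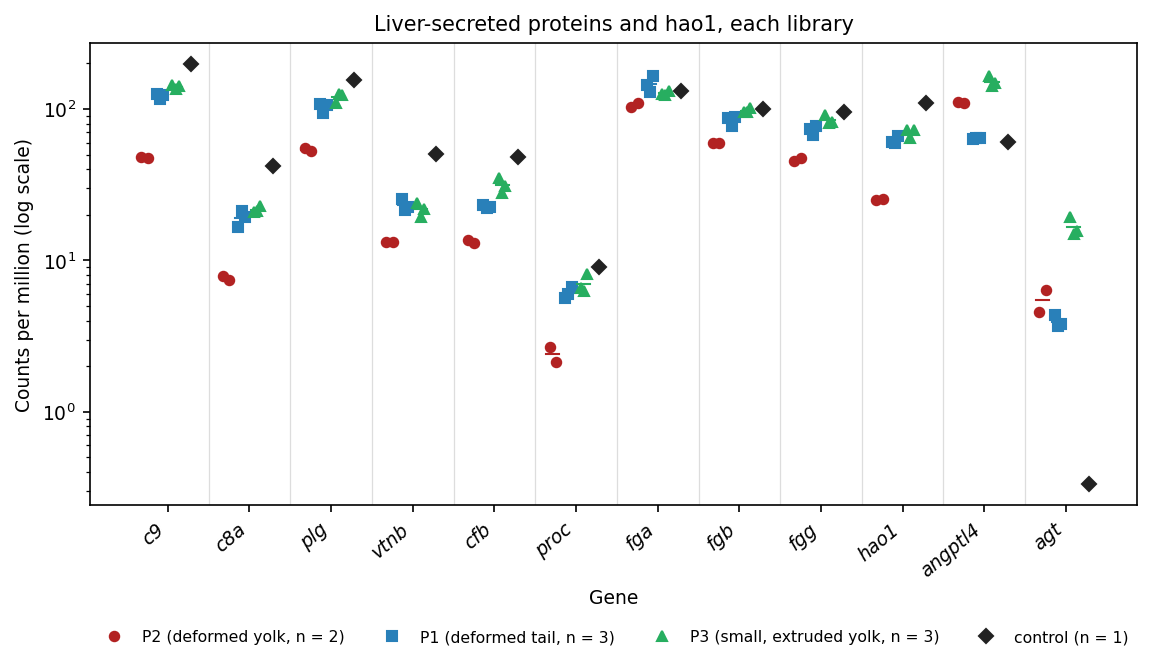
CPM (log scale) of plasma protein genes and hao1 in each library, with P2, P1, P3 and the control from left to right within a gene; points are libraries and short lines are group means. For c9 the P2 libraries stand at 48.1 and 47.4 CPM, below every P1 and P3 library and the control at 199 CPM, while for agt they lie above the control and below every P3 library.

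Among genes that carry yolk lipid, more fell than rose. Of 39 tested members, 4 rose, 21 fell and 14 did not pass the test, at a median log2 fold change of -0.33. Apolipoprotein B is the backbone of lipoprotein particles. The copy annotated APOB (3 of 3) had 29.7 and 29.0 CPM in P2, against 129.6 CPM in the control (log2 fold change -2.14 ± 0.13 SE, adjusted p = 1.90e-09). The abundant copy apobl had 2613 and 2478 CPM in P2, against 3644 CPM in the control (log2 fold change -0.52 ± 0.10 SE, adjusted p = 0.00104). Apolipoprotein A-IV, apoa4, had 162 and 156 CPM in P2, 177 ± 7.44 CPM in P1, 171 ± 17.4 CPM in P3 and 438 CPM in the control (P2 against control, log2 fold change -1.46 ± 0.09 SE, adjusted p = 3.64e-09), and P2 did not pass the test against P1 or P3. The main high-density lipoprotein gene apoa1a fell by a log2 fold change of -0.33 (a call lost without P2 replicate 0) and lay below both other phenotypes, with 3069.5 and 3214 CPM in P2 against 4143 ± 402 CPM in P1 and 5754 ± 445 CPM in P3. The pair of cholesterol exporters abca1a and abca1b went in opposite directions. abca1a rose, with 69.1 and 67.2 CPM in P2, against 49.7 CPM in the control (log2 fold change 0.46 ± 0.12 SE, adjusted p = 0.00869; lost without P2 replicate 0). abca1b fell, with 145 and 143 CPM in P2, against 249.9 CPM in the control (log2 fold change -0.80 ± 0.10 SE, adjusted p = 1.13e-05).

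Among 28 tested genes of the yolk syncytial layer and endoderm, 3 rose, 9 fell and 16 did not pass the test. The retinol carrier rbp4, which is secreted into plasma, had 70.23 and 70.9 CPM in P2, against 324 CPM in the control (log2 fold change -2.20 ± 0.09 SE, adjusted p = 1.10e-11). P1 had 180.4 ± 15.6 CPM and P3 102 ± 4.33 CPM, so that P2 was below both without overlap. The selenium carriers sepp1a and sepp1b fell by log2 fold changes of -1.53 and -0.71. The cellular retinol-binding gene rbp2b rose, with 18.6 and 17.2 CPM in P2, against 8.27 CPM in the control (log2 fold change 1.11 ± 0.17 SE, adjusted p = 8.52e-05). P2 was nevertheless lower in it than P1 and P3. The call against P1 was lost without P2 replicate 1.

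Sterol and fatty acid synthesis genes rose in P2 more often than they fell. Of 40 tested, 18 rose, 5 fell (3 and 1 with 1 P2 library) and 17 did not pass the test, at a median log2 fold change of 0.42. insig1, a sterol sensor that is itself switched on when sterols are scarce, had 78.3 and 73.5 CPM in P2, against 27.5 CPM in the control (log2 fold change 1.47 ± 0.16 SE, adjusted p = 3.03e-06). P1 had 39.03 ± 4.62 CPM and P3 32.9 ± 5.40 CPM, and P2 was above both. The isoprenoid isomerase idi1 rose by a log2 fold change of 0.76, the lipogenic transcription factor srebf1 by 1.08, the fatty acid desaturase scd by 2.21 and the early pathway enzyme hmgcs1 by 0.57. 17 of the 40 were higher in P2 than in P3 (12 and 11 with 1 P2 library), against 10.5% of all genes, while 5 were higher than in P1.

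The clock and light-response genes formed a raised group. Of 49 tested, 28 rose, 3 fell and 18 did not pass the test, at a median log2 fold change of 0.56. 17 of them were above both P1 and P3 (9 and 11 with 1 P2 library), beside 5.51% of all genes, and 1 was below both. lonrf1l (ENSDARG00000078567, chromosome 8, 14217556 to 14304260), which encodes a RING-finger protein, had 156 and 159.7 CPM in P2, 90.3 ± 9.04 CPM in P1, 83.9 ± 15.23 CPM in P3 and 19.6 CPM in the control (P2 against control, log2 fold change 3.01 ± 0.19 SE, adjusted p = 2.87e-09). nfil3-6, a basic leucine zipper repressor gene, had 12.4 and 11.7 CPM in P2, against 1.92 CPM in the control (log2 fold change 2.64 ± 0.26 SE, adjusted p = 7.27e-07). tefa, whose product activates light-driven genes, had 269.5 and 269 CPM in P2, against 89.6 CPM in the control (log2 fold change 1.59 ± 0.19 SE, adjusted p = 6.11e-06). In each of these the P2 libraries stood above the control. List members were named mainly by a small p or a large change against this 1 control library, so this follows in part from the choice.

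The period genes, which encode repressors of the clock, rose except for 1 copy. per2 had 83.4 and 94.5 CPM in P2, against 21.8 CPM in the control (log2 fold change 2.03 ± 0.28 SE, adjusted p = 2.95e-05). per1b rose by a log2 fold change of 0.66 and per3 by 0.94. per1a, at 0.731 and 0.489 CPM in P2 against 0.668 CPM in the control, did not pass. Among the cryptochromes, cry1a, cry1b, cry2b, cry3, cry5 and cry-dash rose, by log2 fold changes of 1.74, 1.02, 1.24, 1.08, 2.24 and 2.03. cry4 and cry2a did not pass against the control, but cry2a was the 1 member below both other phenotypes, with 112 and 109 CPM in P2 against 179 ± 1.82 CPM in P1 and 188 ± 13.7 CPM in P3 (P2 against P1, log2 fold change -0.70 ± 0.06 SE, adjusted p = 1.10e-06). The repair genes ddb2, xpc and neil1, which light also induces in zebrafish, rose by log2 fold changes of 1.53, 0.71 and 1.03, the call on xpc being lost with DESeq2. The activator genes of the clock loop, arntl1a, arntl1b and arntl2, had log2 fold changes of 0.13, 0.14 and -0.10, none past the test. Within P3, replicate 0 stood below the other two in per2, cry1a, cry5 and cry-dash. For per2 the P3 libraries held 36.7, 72.0 and 68.6 CPM, and without that library the log2 fold change of per2 between P2 and P3 was 0.34 instead of 0.59 (adjusted p = 4.70e-04 by edgeR without it). For cry1a it was 0.14 instead of 0.34 (adjusted p = 0.139), for cry5 0.04 instead of 0.37 (adjusted p = 0.737) and for cry-dash 0.21 instead of 0.48 (adjusted p = 0.031). cry1a and cry5 did not pass against P3 with or without that library, and cry-dash passed only without it. In all, 22 genes of the list were above both phenotypes without that library, against 17 with it. Over all tested genes the number also rose, from 1092 to 1349. The labels give the light cycle but not the hour at which each group was lysed.

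**Figure D3:**
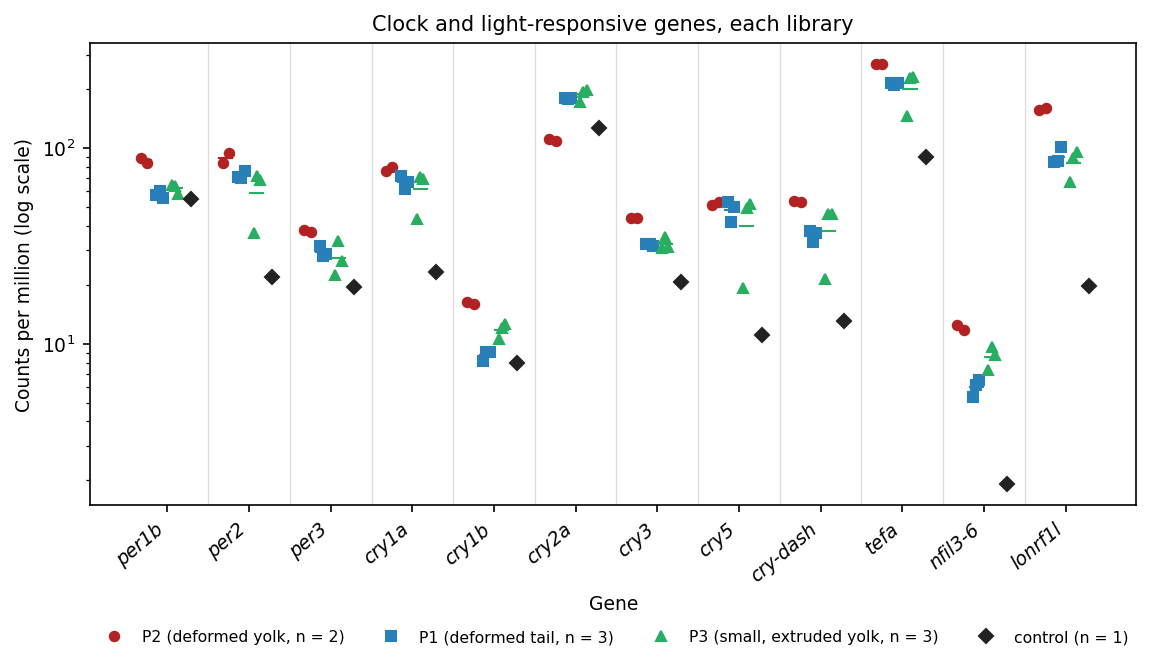
CPM (log scale) of 12 clock and light-response genes in each library, with P2, P1, P3 and the control from left to right within a gene; points are libraries and short lines are group means. The P2 libraries are highest for lonrf1l and per1b and stand above the control in every gene but cry2a, where they are lowest.

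The genes egln3, ankrd37, ddit4 and PPP1R15A, which take part in oxygen sensing and stress control, were above both other phenotypes. Of these, egln3, ankrd37 and PPP1R15A were named among genes with both P2 libraries above every P1 and P3 library. Their separation thus comes from the choice. The oxygen sensor egln3 (ENSDARG00000032553, chromosome 17, 9776764 to 9794821), a prolyl hydroxylase, had 50.7 and 49.6 CPM in P2, 2.96, 2.57 and 2.58 CPM in P1, 2.24, 4.13 and 4.42 CPM in P3 and 13.19 CPM in the control. The P2 libraries were above the control and all 6 libraries of the other phenotypes were below it (P2 against control, log2 fold change 1.93 ± 0.17 SE, adjusted p = 2.97e-07; P2 against P1, log2 fold change 4.203 ± 0.14 SE, adjusted p = 4.33e-12; P2 against P3, log2 fold change 3.78 ± 0.13 SE, adjusted p = 9.61e-12). The ankyrin-repeat gene ankrd37 (ENSDARG00000056376, chromosome 1, 16437321 to 16440668) had 38.9 and 39.6 CPM in P2, 5.84 ± 0.476 CPM in P1, 6.56 ± 0.66 CPM in P3 and 7.85 CPM in the control. ddit4, an inhibitor of the growth regulator mTOR, had 59.9 and 57.7 CPM in P2, 18.0 ± 2.92 CPM in P1, 29.0 ± 2.05 CPM in P3 and 11.4 CPM in the control (P2 against control, log2 fold change 2.37 ± 0.16 SE, adjusted p = 9.03e-09). PPP1R15A, the phosphatase subunit that ends the integrated stress response, had 84.1 and 88.6 CPM in P2, 22.8 ± 0.975 CPM in P1, 30.9 ± 1.51 CPM in P3 and 27.2 CPM in the control (P2 against control, log2 fold change 1.67 ± 0.10 SE, adjusted p = 2.36e-09).

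The wider hypoxia list was mixed. Of 34 tested, 13 rose (7 and 8 with 1 P2 library), 8 fell and 13 did not pass the test, at a median log2 fold change of 0.04. 6 were above both other phenotypes: egln3, ankrd37, ddit4, p4ha1b, vhl and jmjd6, the last pair named after their values were seen. jmjd6, which encodes a lysyl hydroxylase, rose against the control by a log2 fold change of 0.32, a call lost with DESeq2, with the replicate block and without either P2 library. vhl, which marks the hypoxia-inducible factor for destruction, had 13.3 and 14.6 CPM in P2, against 7.68 CPM in the control (log2 fold change 0.86 ± 0.20 SE, adjusted p = 0.00373). The collagen prolyl hydroxylases p4ha1b and p4ha2 fell against the control, by log2 fold changes of -0.78 and -0.998. ca9, the carbonic anhydrase often used as a hypoxia marker, had 1.096 and 1.09 CPM in P2 against 3.09 CPM in the control (log2 fold change -1.50, past the test). The growth factor vegfaa rose by a log2 fold change of 0.48, a call lost with DESeq2 and without either P2 library, while epo, at 3.41 and 2.82 CPM in P2 against 2.76 CPM in the control, did not pass. Of 37 glycolysis genes tested, 4 rose, 18 fell and 15 did not pass the test. The muscle phosphofructokinases pfkma and pfkmb fell by log2 fold changes of -2.73 and -1.52.

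The paralogs mknk2a and mknk2b, kinases that phosphorylate the cap-binding factor eIF4E, moved in opposite directions. mknk2b had 202 and 201 CPM in P2, 71.6, 66.2 and 69.7 CPM in P1, 98.1, 103 and 99.0 CPM in P3 and 65.9 CPM in the control (log2 fold change 1.61 ± 0.09 SE, adjusted p = 3.77e-10). mknk2a had 4.45 and 4.51 CPM in P2, 10.7, 11.5 and 10.8 CPM in P1, 18.5, 19.5 and 21.3 CPM in P3 and 11.2 CPM in the control (log2 fold change -1.32 ± 0.17 SE, adjusted p = 1.67e-05). P2 was thus above every other library in mknk2b and below every other library in mknk2a. Both belong to a list of 48 tested fasting and glucocorticoid targets, of which 15 rose, 5 fell (3 and 5 with 1 P2 library) and 28 did not pass the test.

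In the list of cell death and arrest genes, members of either role were above both other phenotypes. Of 39 tested, 13 rose, 3 fell and 23 did not pass the test. mcl1b, which blocks cell death, had 109 and 106 CPM in P2, 39.2 ± 2.55 CPM in P1, 45.7 ± 1.92 CPM in P3 and 39.7 CPM in the control (P2 against control, log2 fold change 1.43 ± 0.10 SE, adjusted p = 9.55e-09). The death-promoting bbc3 rose beside it, with 18.5 and 18.4 CPM in P2, against 4.76 CPM in the control (log2 fold change 1.95 ± 0.18 SE, adjusted p = 3.43e-07). The cell cycle inhibitor cdkn1a had 25.7 and 27.6 CPM in P2, against 6.93 CPM in the control (log2 fold change 1.94 ± 0.15 SE, adjusted p = 4.57e-08). RPS27L, which encodes a protein like a ribosomal subunit, had 57.4 and 55.2 CPM in P2, against 20.04 CPM in the control (log2 fold change 1.49 ± 0.14 SE, adjusted p = 5.61e-07). cdkn1a, bbc3 and mcl1b were above both other phenotypes. The ubiquitin ligase gene mdm2, at 117 and 119 CPM in P2, against 82.1 CPM in the control, rose by a log2 fold change of 0.52 and did not pass against P1 or P3.

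Further genes set P2 apart from both other phenotypes. The RNA helicase gene ddx43 had 9.87 and 8.47 CPM in P2, 1.66 ± 0.57 CPM in P1, 3.03 ± 1.01 CPM in P3 and 2.42 CPM in the control (P2 against control, log2 fold change 1.91 ± 0.34 SE, adjusted p = 4.44e-04). The tight junction gene cldn7a had 4.51 and 5.05 CPM in P2, 0.424 ± 0.208 CPM in P1, 1.96 ± 0.525 CPM in P3 and 0.668 CPM in the control (P2 against control, log2 fold change 2.83 ± 0.45 SE, adjusted p = 1.37e-04), the control value resting on 8 reads. The amino acid carrier slc7a2 had 23.6 and 24.7 CPM in P2, 9.95 ± 0.345 CPM in P1, 11.1 ± 0.408 CPM in P3 and 8.93 CPM in the control (P2 against control, log2 fold change 1.43 ± 0.14 SE, adjusted p = 5.81e-07). These 3 genes, like mcl1b, fos and itga10, were named among those with both P2 libraries above every P1 and P3 library. That separation thus comes from the choice. Both P2 libraries were also above the control. On the low side, C6H17orf67 had 6.46 and 4.78 CPM in P2, 18.8 ± 1.81 CPM in P1, 18.95 ± 1.53 CPM in P3 and 63.2 CPM in the control (P2 against control, log2 fold change -3.50 ± 0.14 SE, adjusted p = 1.31e-11). comtd1, a methyltransferase-domain gene, had 0.975 and 1.79 CPM in P2, 4.89 ± 0.512 CPM in P1, 4.72 ± 0.183 CPM in P3 and 8.68 CPM in the control (P2 against control, log2 fold change -2.62 ± 0.26 SE, adjusted p = 1.05e-06). The fatty acid carrier cd36 had 6.15 and 7.11 CPM in P2, 17.5 ± 1.28 CPM in P1, 21.6 ± 5.40 CPM in P3 and 9.85 CPM in the control (P2 against control, log2 fold change -0.57 ± 0.26 SE, adjusted p = 0.115), which did not pass against the control. nefm, a neurofilament subunit gene, had 10.1 and 8.36 CPM in P2, 24.0 ± 1.52 CPM in P1, 24.1 ± 1.19 CPM in P3 and 40.6 CPM in the control (P2 against control, log2 fold change -2.14 ± 0.12 SE, adjusted p = 1.26e-09). These 4, like hsp47 and hsp70.3, were likewise named among genes with both P2 libraries below every P1 and P3 library. Both P2 libraries were also below the control.

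**Figure D4:**
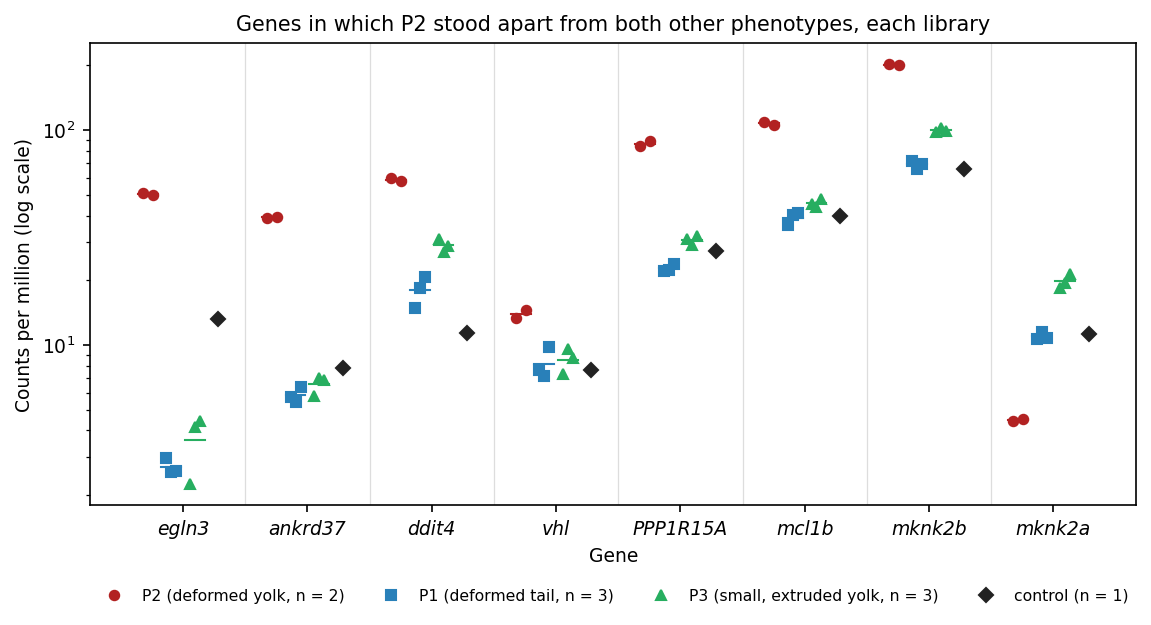
CPM (log scale) of 8 genes in which P2 passed the test against both P1 and P3, in each library, with P2, P1, P3 and the control from left to right within a gene; points are libraries and short lines are group means. In egln3 the P2 libraries, at 50.7 and 49.6 CPM, lie above the control at 13.19 CPM and all P1 and P3 libraries lie below it; in mknk2a the P2 libraries are the lowest.

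Immediate early and growth-signal genes, which are transcribed within minutes of a stimulus, rose more often than they fell. Of 44 tested, 18 rose, 1 fell and 25 did not pass the test, and 8 were above both other phenotypes (4 and 4 with 1 P2 library). The AP-1 gene junbb had 29.1 and 34.2 CPM in P2, against 12.7 CPM in the control (log2 fold change 1.32 ± 0.13 SE, adjusted p = 1.24e-06). Its partner fos, also above both phenotypes, had 10.5 and 11.5 CPM in P2, against 2.59 CPM in the control (log2 fold change 2.09 ± 0.27 SE, adjusted p = 1.95e-05). klf11a and dusp6, a phosphatase that damps FGF signalling, rose by log2 fold changes of 1.81 and 0.89. The Kruppel-like factor gene klf2b was the 1 member that fell, with 17.4 and 15.9 CPM in P2, against 33.6 CPM in the control (log2 fold change -1.01 ± 0.11 SE, adjusted p = 2.77e-06). Of 26 inflammation genes tested, 7 rose (4 and 6 with 1 P2 library), 2 fell and 17 did not pass the test. The collagenase mmp13a and the immune-responsive gene irg1l rose by log2 fold changes of 2.41 and 1.77.

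Antioxidant genes rose more often than they fell. Of 40 tested, 21 rose, 3 fell and 16 did not pass the test. gstp1, a glutathione transferase, had 495 and 501 CPM in P2, against 139 CPM in the control (log2 fold change 1.84 ± 0.22 SE, adjusted p = 6.21e-06). The plasma glutathione peroxidase gpx3 had 11.9 and 9.99 CPM in P2, against 1.42 CPM in the control (log2 fold change 2.94 ± 0.27 SE, adjusted p = 4.18e-07). The haem oxygenase gene hmox1 fell, at 50.9 and 52.8 CPM in P2, against 74.5 CPM in the control (log2 fold change -0.52 ± 0.11 SE, adjusted p = 0.00148). With cat, encoding catalase, it was below both other phenotypes, although the call on hmox1 against P3 was lost without either P2 library. The metal-binding gene mt2 also fell, with 35.1 and 32.9 CPM in P2, against 94.3 CPM in the control (log2 fold change -1.47 ± 0.12 SE, adjusted p = 7.61e-08).

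Of the 13 protein-coding genes of the mitochondrial genome, 12 were lower in P2 than in both other phenotypes, while 3 passed against the control. Against the control, 2 rose, 1 fell and 10 did not pass the test, at a median log2 fold change of -0.03. mt-co1 and mt-cyb rose by log2 fold changes of 0.33 and 0.29, and mt-atp8 fell by a log2 fold change of -0.32. The call on mt-atp8 was lost without either P2 library, and that on mt-cyb without P2 replicate 0. Against P1 12 of 13 were lower, with a median of -0.36, and against P3 all 13 were lower, with a median of -0.58. mt-nd2, a complex I subunit gene, had 1097 and 1155 CPM in P2, 1814, 1663 and 1806 CPM in P1, 2499, 1989 and 2095 CPM in P3 and 1352 CPM in the control. P2 was below every library of both phenotypes in it (P2 against P1, log2 fold change -0.65 ± 0.08 SE, adjusted p = 2.25e-05; P2 against P3, log2 fold change -0.96 ± 0.08 SE, adjusted p = 2.32e-07). The 13 genes together summed to 29223 and 28857 CPM in P2, 36756, 33924 and 36573 CPM in P1, 42177, 39506 and 40836 CPM in P3, and 27392 CPM in the control. The part of poly(A) selection in these levels was not tested. Of 84 nuclear genes for respiratory chain subunits, 7 rose (4 and 3 with 1 P2 library), 3 fell and 74 did not pass the test against the control, and their medians against P1 and P3 were 0.003 and 0.07.

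**Figure D5:**
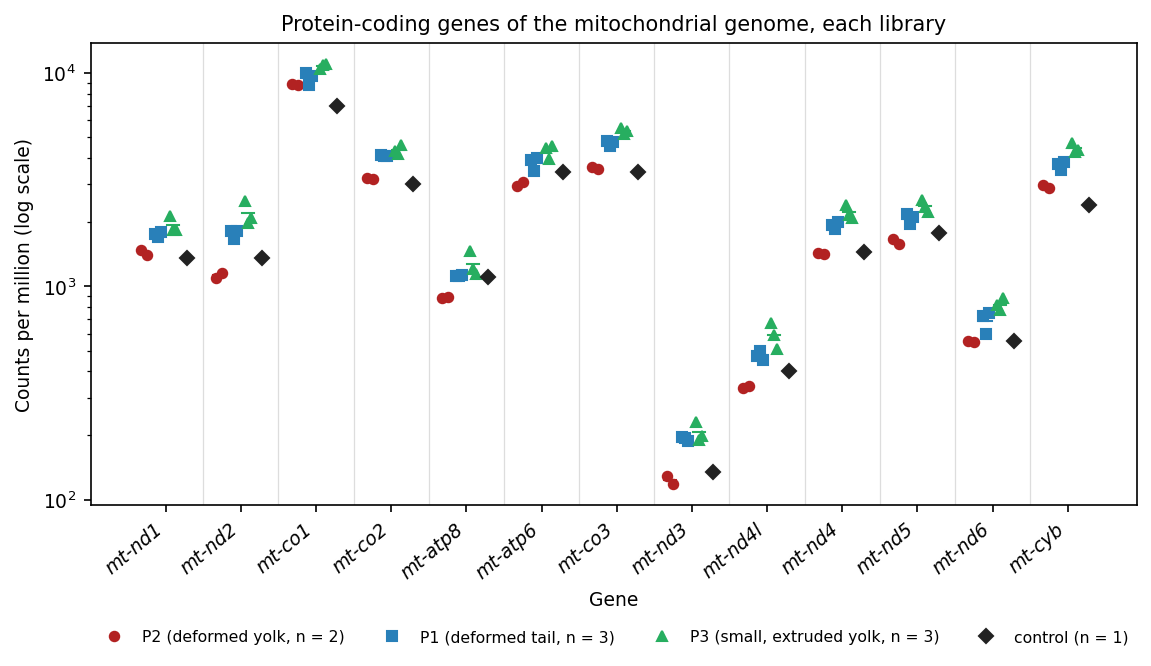
CPM (log scale) of the 13 protein-coding genes of the mitochondrial genome in each library, with P2, P1, P3 and the control from left to right within a gene; points are libraries and short lines are group means. In mt-nd2 the P2 libraries lie below every other library, and across the panel P2 and the control lie near each other while P1 and P3 stand higher.

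Part of the chaperone and endoplasmic reticulum genes were lower in P2 than in both other phenotypes. Of 39 heat shock genes tested, 11 were below both (8 and 7 with 1 P2 library) and none above both, while against the control 8 rose (5 and 4 with 1 P2 library), 10 fell and 21 did not pass the test. The collagen chaperone hsp47 had 76.8 and 68.8 CPM in P2, 179.9, 236 and 197 CPM in P1, 369, 209.9 and 228 CPM in P3 and 164 CPM in the control (log2 fold change -1.17 ± 0.22 SE, adjusted p = 7.77e-04). The inducible hsp70.3 had 2.01 and 2.93 CPM in P2 against 8.84 ± 1.102 CPM in P1, 7.16 ± 2.82 CPM in P3 and 5.18 CPM in the control, and did not pass against the control (adjusted p = 0.057). Of 25 unfolded protein response genes, 7 were below both (2 and 3 with 1 P2 library), among them the disulfide isomerases pdia3 and pdia4 and the chaperone hsp90b1, which had 125 and 129 CPM in P2 against 184 CPM in the control (log2 fold change -0.53 ± 0.09 SE, adjusted p = 4.27e-04). The call on pdia4 against P3 was lost without either P2 library. Against the control, 1 of the 25 rose, 4 fell and 20 did not pass the test, at a median log2 fold change of -0.04. 11 of 30 integrated stress response genes were below both as well (5 and 4 with 1 P2 library). Another 3 of the 30 were above both, PPP1R15A and ddit4 among them. Against the control, 9 of the 30 rose, 6 fell and 15 did not pass the test, at a median log2 fold change of -0.013. Among those below both, the amino acid carrier slc38a2 had 43.1 and 41.9 CPM in P2, 78.6 ± 5.11 CPM in P1, 87.7 ± 11.9 CPM in P3 and 100.7 CPM in the control (P2 against control, log2 fold change -1.24 ± 0.12 SE, adjusted p = 6.37e-07). In the lysosome and autophagy list, 12 of 52 were below both (6 and 5 with 1 P2 library). Against the control, 31 of the 52 did not pass the test and the others went in both directions, at a median log2 fold change of -0.037. The cathepsin gene ctssb.1 had 65.1 and 62.4 CPM in P2, 115 ± 12.9 CPM in P1, 232 ± 57.3 CPM in P3 and 129.8 CPM in the control (P2 against control, log2 fold change -1.03 ± 0.18 SE, adjusted p = 3.64e-04). The autophagy receptor sqstm1 rose, with 117 and 121 CPM in P2, against 45.2 CPM in the control (log2 fold change 1.40 ± 0.14 SE, adjusted p = 9.54e-07).

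Protein turnover and replication genes rose by small amounts in many members at once. Of 43 tested genes with proteasome names, 25 rose (16 and 17 with 1 P2 library), 0 fell and 18 did not pass the test, at a median log2 fold change of 0.29. The deubiquitinating lid subunit psmd14 had 118 and 117 CPM in P2, against 80.8 CPM in the control (log2 fold change 0.55 ± 0.09 SE, adjusted p = 1.94e-04). The core subunit psma6b rose by a log2 fold change of 0.51. The list was matched by name and also takes in psmc3ip, which is no proteasome subunit and whose call was lost without P2 replicate 1. Of 60 replication and mitosis genes, 25 rose (15 and 12 with 1 P2 library), 1 fell and 34 did not pass the test, with a median of 0.21. The replication licensing gene CDC6 had 99.0 and 97.7 CPM in P2, against 71.6 CPM in the control (log2 fold change 0.46 ± 0.09 SE, adjusted p = 0.00112). ccne2, a cyclin of the start of S phase, rose by a log2 fold change of 0.49, and the sliding clamp pcna by 0.33. Ribosomal protein genes and aminoacyl tRNA synthetases did not share in this rise. Of 80 ribosomal protein genes, 7 rose (1 and 1 with 1 P2 library), 0 fell and 73 did not pass the test. The share that rose, 8.75%, was below the 14.2% of all tested genes. Of 20 aminoacyl tRNA synthetases, 3 rose, 0 fell and 17 did not pass the test, a rising share close to that of all tested genes.

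In the axial tissue, early mesoderm genes rose more often than they fell, and most genes of mature fibres fell. Of 51 presomitic mesoderm and segmentation genes, 22 rose (11 and 14 with 1 P2 library), 3 fell and 26 did not pass the test, at a median log2 fold change of 0.36. The T-box factor tbx6 had 25.2 and 25.3 CPM in P2, 12.9 ± 1.22 CPM in P1, 23.4 ± 3.12 CPM in P3 and 5.34 CPM in the control (P2 against control, log2 fold change 2.24 ± 0.19 SE, adjusted p = 1.70e-07). The tailbud enzyme cyp26a1, which degrades retinoic acid, had 116 and 113 CPM in P2, against 35.8 CPM in the control (log2 fold change 1.68 ± 0.09 SE, adjusted p = 7.81e-10). It was above both other phenotypes, as was the Wnt effector lef1 (log2 fold change against the control 0.83; lost against P3 without P2 replicate 1). Among 31 muscle precursor genes, 12 rose, 5 fell (4 and 3 with 1 P2 library) and 14 did not pass the test. The differentiation switch myog had 77.0 and 79.6 CPM in P2, against 27.2 CPM in the control (log2 fold change 1.52 ± 0.13 SE, adjusted p = 2.37e-07). The fusion partner jam2a rose by a log2 fold change of 1.72. Of 100 skeletal muscle genes tested, 3 rose, 81 fell and 16 did not pass the test, and 35 were below both other phenotypes (14 and 16 with 1 P2 library). The list summed to 35076 and 35589.5 CPM in P2 and to 34591, 41987 and 44201.5 CPM in P3, where replicate 0 was the lowest. Without P3 replicate 0, 56 members were below both other phenotypes, while over all tested genes the number rose from 1176 to 1444. The skeletal actin acta1a had 261 and 279.7 CPM in P2, 423 ± 12.6 CPM in P1, 400.5 ± 22.5 CPM in P3 and 612 CPM in the control (P2 against control, log2 fold change -1.18 ± 0.08 SE, adjusted p = 7.51e-09). The 3 that rose, named after their values were seen, were myhb, smyhc2 and tnnc1a, and the calls on myhb and smyhc2 were lost with DESeq2 and without P2 replicate 1.

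Most genes of differentiated neurons fell, while the progenitor list was divided. Of 77 neuron genes, 2 rose, 51 fell and 24 did not pass the test, at a median log2 fold change of -0.59. The synuclein gene sncb had 26.1 and 26.1 CPM in P2, against 52.4 CPM in the control (log2 fold change -1.01 ± 0.10 SE, adjusted p = 1.34e-06). Acetylcholinesterase, ache, had 42.3 and 40.8 CPM in P2, against 74.6 CPM in the control (log2 fold change -0.85 ± 0.10 SE, adjusted p = 8.30e-06). Of 55 neural progenitor genes, 14 rose (6 and 9 with 1 P2 library), 11 fell (9 and 7 with 1 P2 library) and 30 did not pass the test. The Notch targets her2 and hey1 rose, her2 with 63.6 and 62.3 CPM in P2, against 24.5 CPM in the control (log2 fold change 1.36 ± 0.11 SE, adjusted p = 6.53e-08), and hey1 by a log2 fold change of 1.196. The intermediate filament gene nes, a progenitor marker, fell, with 65.5 and 65.6 CPM in P2, against 130.0 CPM in the control (log2 fold change -0.99 ± 0.08 SE, adjusted p = 1.44e-07). Of 53 proneural factor genes, 2 rose, 22 fell and 29 did not pass the test. The forebrain factor dlx1a had 4.75 and 4.62 CPM in P2, against 12.3 CPM in the control (log2 fold change -1.39 ± 0.18 SE, adjusted p = 1.67e-05).

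In the eye, 46 of 78 matched lens genes could be tested, and 2 rose, 34 fell and 10 did not pass the test, at a median log2 fold change of -2.67. The other 32 did not pass the filter, for which 1 library, such as the control, was enough. Lens genes high in the control alone could thus be counted, while those low in every library could not. The beta-crystallin cryba2a had 5.66 and 6.35 CPM in P2, against 50.7 CPM in the control (log2 fold change -3.07 ± 0.16 SE, adjusted p = 3.66e-10). cryba2b had 10.6 and 9.34 CPM in P2, against 41.9 CPM in the control (log2 fold change -2.07 ± 0.12 SE, adjusted p = 1.40e-09). P2 lay below P1 in 26 lens genes and below P3 in 12 (2 and 2 with 1 P2 library). Without P3 replicate 0, P2 lay below P3 in 20 lens genes, while over all tested genes the number rose from 2178 to 2418. Crystallin genes include near-identical copies, among which the deposited counting may have divided reads, so values of single copies are uncertain. Of 39 retina genes tested, 3 rose, 13 fell and 23 did not pass the test. Their summed level was nevertheless higher in P2, at 1339 and 1329 CPM, against 1058 CPM in the control. The visual cycle enzyme rpe65b had 31.8 and 30.9 CPM in P2, against 78.4 CPM in the control (log2 fold change -1.32 ± 0.08 SE, adjusted p = 3.54e-09). It was below both other phenotypes. In the pigment cells, no melanin gene rose, while 19 of 35 fell and 13 were below both phenotypes. The melanosome fibre genes pmela and pmelb fell by log2 fold changes of -1.72 and -1.68. The yellow-pigment pathway fell with them in part, gch2 by a log2 fold change of -1.08 and PTS by -1.28, while its feedback regulator gchfr rose, with 7.86 and 8.26 CPM in P2, against 0.751 CPM in the control (log2 fold change 3.41 ± 0.31 SE, adjusted p = 3.23e-07).

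Blood and vessel lists moved in both directions, as did all tested genes, of which 14.2% rose and 15.6% fell. Of 47 red cell and haem genes, 11 rose (7 and 7 with 1 P2 library), 15 fell and 21 did not pass the test. The band 3 anion exchanger slc4a1a, a late red cell gene, had 126 and 121 CPM in P2, against 244 CPM in the control (log2 fold change -0.98 ± 0.11 SE, adjusted p = 3.94e-06). The haem-binding gene hebp2 had 201 and 192 CPM in P2, against 73.3 CPM in the control (log2 fold change 1.42 ± 0.29 SE, adjusted p = 0.00149). Of 32 myeloid genes, 2 rose, 7 fell and 23 did not pass the test. The granule enzymes lyz and mpx had the clearest falls, lyz with 6.82 and 6.30 CPM in P2, against 28.3 CPM in the control (log2 fold change -2.11 ± 0.17 SE, adjusted p = 5.30e-08), and mpx with 1.58 and 1.74 CPM in P2, against 11.7 CPM in the control (log2 fold change -2.81 ± 0.25 SE, adjusted p = 2.51e-07). In both, P2 was below P1 and P3. Of 53 vessel genes, 11 rose, 7 fell and 35 did not pass the test, and 8 were above both other phenotypes (5 and 5 with 1 P2 library) against 1 below. The scavenger receptor stab2 had 99.0 and 101.1 CPM in P2, 55.2 ± 4.27 CPM in P1, 64.7 ± 5.26 CPM in P3 and 60.5 CPM in the control (P2 against control, log2 fold change 0.73 ± 0.11 SE, adjusted p = 6.71e-05). The endothelial lectin clec14a rose by a log2 fold change of 0.87. The adhesion gene sele fell, at 2.13 and 1.09 CPM in P2 against 7.35 CPM in the control (log2 fold change -2.21 ± 0.30 SE, adjusted p = 2.48e-05).

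Of 47 heart genes, 7 rose, 14 fell and 26 did not pass the test. The myosin light chain MYL4, atrial in mammals, had 253 and 261 CPM in P2, against 419.7 CPM in the control (log2 fold change -0.71 ± 0.08 SE, adjusted p = 3.30e-06). The growth factor gene bmp4 had 58.5 and 56.4 CPM in P2, against 35.2 CPM in the control (log2 fold change 0.71 ± 0.10 SE, adjusted p = 5.53e-05). Of 35 kidney genes, 3 rose, 12 fell and 20 did not pass the test. The salt cotransporter slc12a1 had 4.14 and 4.02 CPM in P2, 7.38 ± 0.722 CPM in P1, 12.5 ± 1.12 CPM in P3 and 13.7 CPM in the control (P2 against control, log2 fold change -1.75 ± 0.18 SE, adjusted p = 1.29e-06). Of 17 hatching gland genes, 5 rose, 2 fell and 10 did not pass the test. The hatching protease genes he1a and he1b rose by log2 fold changes of 0.40 and 0.53 and were above both other phenotypes, he1b with 1250.3 and 1177 CPM in P2, against 843 CPM in the control. Against P3 the call on he1a was lost without either P2 library, and that on he1b without P2 replicate 0.

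Skin and matrix genes fell more often than they rose. Of 65 epidermis and keratin genes, 6 rose (2 and 2 with 1 P2 library), 33 fell and 26 did not pass the test. The keratin copy KRT23 (12 of 15) had 37.8 and 40.1 CPM in P2, against 274 CPM in the control (log2 fold change -2.81 ± 0.08 SE, adjusted p = 6.93e-14). krt15 had 0.792 and 0.76 CPM in P2, against 11.8 CPM in the control (log2 fold change -3.91 ± 0.26 SE, adjusted p = 7.07e-09). No collagen gene rose, while 32 of 53 fell, at a median log2 fold change of -0.61. col1a1a, the main fibrillar collagen of skin, had 733 and 741 CPM in P2, against 1403 CPM in the control (log2 fold change -0.93 ± 0.09 SE, adjusted p = 7.50e-07). The basement membrane gene col17a1a had 0.792 and 1.19 CPM in P2, against 8.85 CPM in the control (log2 fold change -3.13 ± 0.33 SE, adjusted p = 1.66e-06). Against the other phenotypes, P2 was below both in 4 of the 53 collagen genes and above both in 5 (2 and 1 with 1 P2 library). Of 45 integrin and laminin genes, 5 rose (4 and 3 with 1 P2 library), 19 fell (17 and 11 with 1 P2 library) and 21 did not pass the test. The laminin lamb4 had 23.4 and 22.7 CPM in P2, against 64.5 CPM in the control (log2 fold change -1.49 ± 0.13 SE, adjusted p = 3.07e-07). itga10, a collagen-binding integrin gene, rose, with 6.94 and 7.55 CPM in P2, against 3.59 CPM in the control (log2 fold change 1.01 ± 0.27 SE, adjusted p = 0.00988), above both phenotypes. Its call against the control was lost without P2 replicate 1. Among 52 fin fold genes, 14 were above both other phenotypes (7 and 2 with 1 P2 library) and 3 below both, while against the control 10 rose (6 and 8 with 1 P2 library), 13 fell and 29 did not pass the test.

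The retinoid and P450 lists moved in both directions, again beside 14.2% of all tested genes that rose and 15.6% that fell. Conjugation enzymes rose more often than they fell, 34.9% against 11.6% of those tested, at a median log2 fold change of 0.41. Of 41 retinoic acid genes, 10 rose, 9 fell and 22 did not pass the test. Besides rbp4 and cyp26a1, the retinaldehyde reductases dhrs3a and dhrs3b rose by log2 fold changes of 1.38 and 0.80, and the binding protein gene crabp1b fell by a log2 fold change of -1.33. Of 55 cytochrome P450 genes outside the CYP1 family, 6 rose (3 and 4 with 1 P2 library), 13 fell and 36 did not pass the test. The steroid hydroxylase cyp17a1 had 3.78 and 2.44 CPM in P2, against 16.5 CPM in the control (log2 fold change -2.42 ± 0.22 SE, adjusted p = 2.96e-07). cyp2ad3 and cyp2aa1, of the CYP2 family, fell by log2 fold changes of -1.38 and -1.74. Of 43 conjugation enzymes, 15 rose (9 and 11 with 1 P2 library), 5 fell (4 and 3 with 1 P2 library) and 23 did not pass the test. ugt1ab and ugt1b4, which attach glucuronic acid, had log2 fold changes of 1.24 and 0.82. The monocarboxylate carrier genes slc16a9a and slc16a9b were above both other phenotypes, slc16a9a with 22.4 and 22.0 CPM in P2, 2.39 ± 0.339 CPM in P1, 14.3 ± 1.56 CPM in P3 and 0.835 CPM in the control and slc16a9b with 85.3 and 84.0 CPM in P2, 43.0 ± 2.17 CPM in P1, 68.0 ± 2.82 CPM in P3 and 4.51 CPM in the control. The widest gap was in slc16a9a between P2 and P1 (log2 fold change 3.21 ± 0.13 SE, adjusted p = 3.85e-11). Hox genes (49 tested) and ABC transporters (42 tested) had median log2 fold changes of 0.012 and 0.014, and among the Hox genes 11 rose, 4 fell and 34 did not pass the test.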

How the data were processed

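Poly(A)-selected RNA of whole embryos was sequenced after TruSeq RNA v2 library preparation, per the labels' protocols. Per the submitters' processing notes, Novoalign (no version) aligned the reads to Zv9. How reads were counted, with which strand setting and which annotation, is not stated in the labels or headers. Raw counts come from 3 deposited tables, each pairing a phenotype with the control, per the file headers. They were joined into 1 matrix of 32312 genes. The authors' FPKM values, per the file headers, were used for the level of cyp1a alone. The authors' deposited score (a log10-scaled adjusted p) and their deposited log2 ratio were used in the closing part alone, and 19 other columns of per-sample values were not used. Coordinates are 1-based on Zv9.

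Genes were kept by filterByExpr by group (minimum count 10, minimum total 15) and normalised with TMM factors. As the control is 1 library, 1 library at that minimum count was enough for a gene to be kept. A quasi-likelihood model on group, without a block, was fitted to all 9 libraries at once (edgeR 4.0.16, limma 3.58.1, R 4.3.3), so that the spread was shared over groups. It had 5 residual degrees of freedom, a median prior of 12.4 and a common biological coefficient of variation of 0.0565. Tests were two-sided F tests, adjusted over 19835 genes by Benjamini-Hochberg, with 0.05 as the threshold. The standard error is the size of the log2 fold change divided by the square root of F. The code was tested on simulated data. DESeq2 1.42.0, other scalings and filters, a 2-fold minimum, a replicate block, a fit of the 2 groups alone and the loss of each library were tried as alternatives. In the control, 3 counts correspond to 0.25 CPM, which covers counting error only.

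The members, the 57 gene lists, the tests and the naming rule were chosen with earlier results of these data known. The lists had 3072 entries, 2731 of them found by symbol, 128 by way of the gene name tables and 213 not found. Genes without a symbol match were left out. The rule named the 12 largest rises and 12 largest falls with at least 5 CPM in the higher group. It also named up to 5 members per list with the smallest p and other members that show a family whole. To these it added up to 10 genes per direction apart from both other phenotypes, and a fixed panel led by the CYP1 genes. The genes apart from both were taken only where no P2 library overlapped with P1 or P3. Outside the rule, and named after their values were seen, were abca1a, angptl4, apobl, apoa1a, ca9, cat, ddb2, epo, hebp2, jmjd6, neil1, psmc3ip, smyhc2, myhb, tnnc1a, vegfaa, vhl, xpc and the arntl genes. A planned motif search in promoters was not made, and no genome sequence was used here.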

Additional observations from a re-analysis of the deposited data

Results flagged for a closer look

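In 21 genes named in the text both P2 libraries lay on one side of the control and every library of another phenotype lay on the other side, and edgeR's test of P2 against that phenotype passed. In 8 of them this held against both P1 and P3, in 10 against P1 alone and in 3 against P3 alone.

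The oxygen sensor gene egln3 was above the control in P2 and below it in P1 and P3, with a log2 fold change of 4.2 for P2 against P1 and 3.78 for P2 against P3. The same held for ankrd37, with log2 fold changes of 2.75 against P1 and 2.58 against P3. In the other 6 genes P2 was below the control and both other phenotypes were above it. For the collagen chaperone gene hsp47 the log2 fold changes were -1.49 against P1 and -1.89 against P3. They were -1.82 and -1.5 for the heat shock gene hsp70.3, -1.39 and -1.7 for the fatty acid carrier gene cd36, and -0.7 and -0.77 for the cryptochrome gene cry2a. For the mitochondrial genes they were -0.65 and -0.96 in mt-nd2 and -0.35 and -0.52 in mt-atp8. Of these, hsp70.3, cd36, cry2a and mt-nd2 did not pass against the control.

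Against P1 alone, P2 was above the control and P1 below it in the helicase gene ddx43 (log2 fold change 2.48), PPP1R15A (1.92), the integrin gene itga10 (1.44), the tight junction gene cldn7a (3.47), the cholesterol exporter gene abca1a (1.03), the scavenger receptor gene stab2 (0.86), the myosin gene smyhc2 (0.55), the hatching protease gene he1a (0.45) and the clock gene arntl1a (0.26). For arntl1a the test against the control did not pass, and the call against P1 was lost without either P2 library. The disulfide isomerase gene pdia3 ran the other way (-0.47). Against P3 alone, P2 was below the control and P3 above it in the kinase gene mknk2a (log2 fold change -2.14), the cathepsin gene ctssb.1 (-1.87) and the apolipoprotein gene apoa1a (-0.87). All these contrasts rest on the same 2 P2 libraries and the single control, and no cause was tested.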

How the results depend on the processing

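No gene named in the text that passed its test reversed its direction under the 15 alternatives that give a value per gene. The balance of higher and lower counts did turn: with library totals alone it was 2063 higher and 1956 lower against P1, 2275 and 1988 against P3, and 1193 and 1092 apart from both, and with RLE size factors 2190 and 2127 against P3. It also turned with DESeq2 against P3, and with only the 2 groups compared for genes apart from both, at 1255 higher and 1192 lower. DESeq2 called fewer genes, 1761 higher and 2059 lower in P2 than in the control, 1178 and 1285 against P1, 1348 and 1323 against P3, and 628 and 699 above or below both. A test for a change beyond 2-fold called 111 higher and 341 lower against the control, 40 and 42 against P1, 8 and 47 against P3, and 6 and 15 apart from both. With 1 library left out at a time, the counts against the control ran from 1706 to 3282 higher, against P1 from 810 to 2555 higher and 915 to 2651 lower, against P3 from 846 to 2236 higher and 1029 to 2418 lower, and apart from both from 392 to 1349 higher and 492 to 1444 lower. Every lowest value came from leaving out P2 replicate 0 or P2 replicate 1, which leaves a lone P2 library that is assumed to vary like the other groups. Other scalings moved the median of all genes by at most 0.0147 on the log2 scale.

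No pairing of the libraries by replicate number was seen. Deviations were taken within each group from the mean of the replicate numbers that both groups have. Their correlations between same-numbered libraries were -0.018 for P2 with P1 and -0.005 for P2 with P3. For P1 with P3 they were -0.107, -0.072 and 0.018. With the replicate block, 2441 genes were higher and 2798 lower than in the control, 1480 and 1609 against P1, 1578 and 1661 against P3, and 776 and 868 apart from both. Of 165 named genes that passed against the control, 163 also passed with the block and 159 with DESeq2. These genes were mostly chosen by small p, large change or separation in the same fit. Over all genes, 5090 of the 5916 calls against the control were kept with the block and 3819 with DESeq2. The calls between phenotypes held less often. Of 139 named genes that passed against P1, 132 also passed with the block and 129 with DESeq2. Of 122 that passed against P3, 115 and 110 did. Over all genes, 2999 of the 4072 calls against P1 were kept with the block and 2463 with DESeq2. Against P3, 3131 and 2667 of 4270 were kept. Leaving out either P2 library cost more of the calls against P1 and P3 than of those against the control.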

Other observations

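The labels and headers do not name the test behind the authors' deposited table for P2 against the control. Among the 19835 genes tested here, it gives 2045 higher and 2432 lower at an adjusted p of 0.05. Genes that the filter removed here were not compared. Of the calls made here, 71.4% are also calls in the authors' deposited table. Of the authors' calls among these tested genes, 94.3% are also made here. All 4222 genes called in both have the same direction.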
